A study of Arabidopsis thaliana with 4 samples.

Results

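Transcript signals of 4 protein kinase genes were followed in above-ground tissue of Arabidopsis thaliana carrying or lacking a mutation in FNR1. The kinases are measured by 4 of the 22810 probe sets of the Affymetrix array. They are probe set 259561_at, taken as that of WAK1 (AT1G21250), and the single probe sets listed for AT1G11330, AT1G16670 (CRPK1) and AT5G59670. They were chosen by their higher signal in fnr1 than in wild type in earlier results from these same arrays, so the genotype values below describe these kinases and none of them is tested. The annotation used lists the probe sets of AT1G11330, AT1G16670 and AT5G59670 and does not list 259561_at, whose gene name rests on the definition of the group.

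The study set the effect of losing FNR1, a leaf ferredoxin-NADP+ oxidoreductase, against the variation between natural accessions. There were 4 groups with 1 array each, namely fnr1 in Columbia, wild type Columbia, fnr1 in Wassilewskija (Ws) and wild type Ws. Plants were 31 days old when sampled, 4 h into an 8 h light period (100 µmol quanta, 16 h dark, 21 °C, soil of pH 6.5). The alleles and the number of plants behind each array are not given in the labels, and each group is known only from its single array. The wild type Columbia array was the dimmest as deposited (median signal 22.1, against 27.5 to 29.0 on the other arrays), so signals were scaled to a common median of 26.6, and every signal below is a scaled one. Of 4 green leaf markers, RCA (Rubisco activase) and LHCB4.1 (a minor antenna protein) had between 6278 and 7366 on every array. LHCB4.2 had 2823 and 3022 in fnr1 and wild type Ws against 6051 and 6479 in fnr1 and wild type Columbia (limma adjusted p = 2.71e-05), and LHCB4.3 had 255.9 and 294.8 in fnr1 and wild type Ws against 660.3 and 491.8 in fnr1 and wild type Columbia (limma adjusted p = 0.000563). The root hair expansins EXPA7 and EXPA18 reached at most 10.5 on any array. Flower and seed markers were not analysed here, and neither was FNR1, so no check of the mutant labels was made here.

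Receptor kinases of plants span the plasma membrane, with an outer domain that senses a ligand or the cell wall and an inner kinase domain that relays the signal. Receptor-like cytoplasmic kinases lack the outer domain and act next to such receptors. In leaves many members of both classes take part in the recognition of microbes and of damage to the cell wall, and the transcripts of several accumulate after treatment with salicylic acid, a defence hormone. WAK1 encodes a wall-associated kinase that binds pectin, and its transcript is known to be inducible by salicylic acid. AT1G11330 encodes an S-locus lectin receptor kinase, AT5G59670 a leucine-rich repeat receptor kinase, and AT1G16670 the cytoplasmic kinase CRPK1, named for its part in responses to cold. CRPK1 is therefore not a receptor itself.

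WAK1 was higher in fnr1 by nearly the same factor in both ecotypes. Its signal was 329.7 in fnr1 Columbia against 90.8 in wild type Columbia, and 116.2 in fnr1 Ws against 30.2 in wild type Ws. Both fnr1 arrays lay above both wild type arrays, although fnr1 Ws exceeded wild type Columbia by little. The ratio of fnr1 to wild type was 3.63 in Columbia and 3.84 in Ws. On the scale of log2(signal + 5.76), on which all log2 values here are given, the differences were 1.80 and 1.76. In whole above-ground tissue a lower signal may come from fewer cells with the transcript or from less of it per cell, which these arrays cannot tell apart. The differences placed WAK1 15th in Columbia and 4th in Ws among the 13648 probe sets bright enough to be tested, ordered from the highest difference.

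AT1G11330, the S-locus lectin kinase, was higher in fnr1 mainly in Columbia. Its signal was 97.8 in fnr1 Columbia against 24.3 in wild type Columbia, and 47.1 in fnr1 Ws against 30.1 in wild type Ws. Both fnr1 arrays were above both wild type arrays, and the wild type arrays lay close together. The ratio was 4.02 in Columbia and 1.56 in Ws, with log2 differences of 1.78 and 0.56. The Columbia difference ranked 16th of the 13648 and the Ws difference 396th.

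AT5G59670, the leucine-rich repeat kinase, was low on the wild type Columbia array alone. Its signal was 61.7 in fnr1 Columbia against 15.8 in wild type Columbia, and 70.0 in fnr1 Ws against 51.0 in wild type Ws. The wild type Ws plants thus had a signal near that of both mutants, while the groups still did not overlap by genotype. The ratio of fnr1 to wild type was 3.91 in Columbia and 1.37 in Ws, and the log2 differences were 1.65 and 0.42, which ranked 23rd and 848th.

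AT1G16670 (CRPK1) went in opposite directions in the ecotypes, so its description as higher in fnr1 holds for Columbia and not for Ws. The signal was 48.5 in fnr1 Columbia against 16.2 in wild type Columbia, and 19.8 in fnr1 Ws against 32.6 in wild type Ws. The genotypes overlapped, with fnr1 Ws below wild type Ws and close to wild type Columbia. The ratio was 3.00 in Columbia and 0.607 in Ws, and the log2 differences were 1.31 and -0.59. It ranked 43rd in Columbia and 13217th of 13648 in Ws. Over both ecotypes its mean log2 difference was 0.36, against 1.78 for WAK1, 1.17 for AT1G11330 and 1.03 for AT5G59670, and that mean describes neither ecotype. With an array left out these means ran from -0.18 to 0.90 for AT1G16670, from 1.05 to 2.51 for WAK1, from 0.69 to 1.66 for AT1G11330 and from 0.33 to 1.73 for AT5G59670, in fits where ecotype is no longer a term. The value of AT5G59670 was lowest without wild type Columbia, and those of WAK1 and AT1G11330 without fnr1 Columbia.

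**Figure D1:**
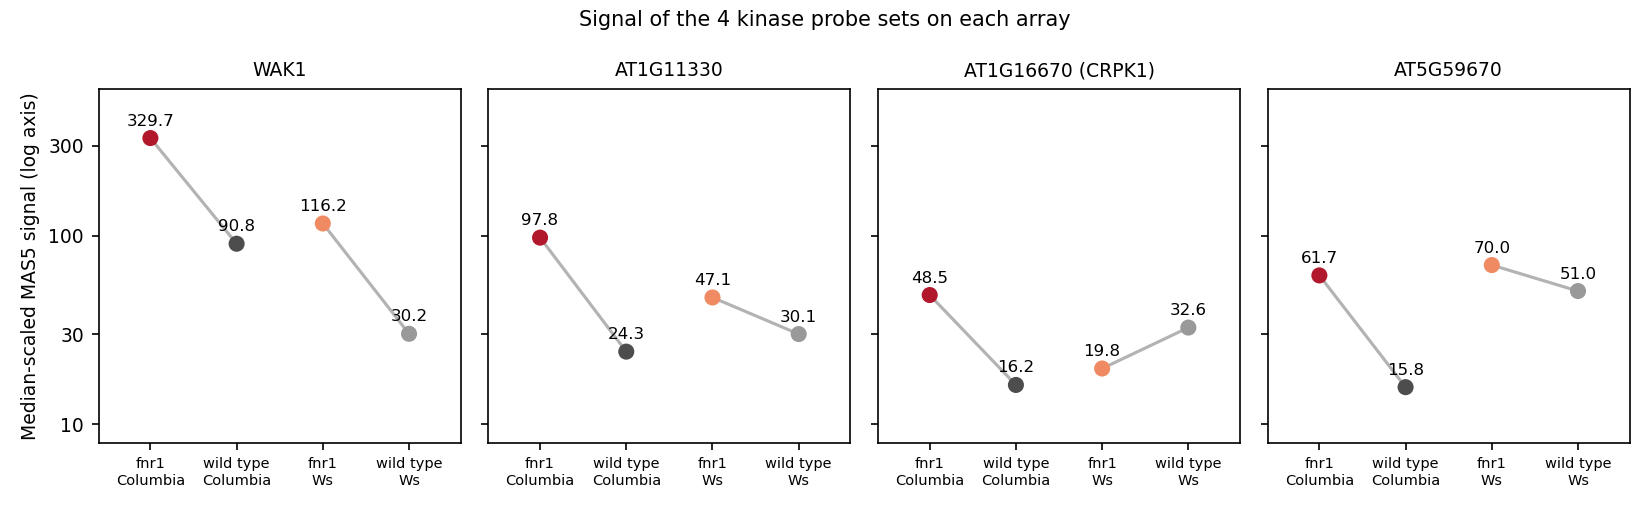
Median-scaled MAS5 signal (log axis) of the probe sets of WAK1, AT1G11330, AT1G16670 (CRPK1) and AT5G59670, with 1 point per array and a line joining fnr1 to wild type of the same ecotype. The lines of WAK1 have nearly the same slope in both ecotypes, those of AT1G11330 and AT5G59670 are flatter in Ws, and that of AT1G16670 runs the other way in Ws, at 19.8 in fnr1 against 32.6 in wild type.

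All 4 kinases were 2-fold or more above wild type in Columbia, where 0.799% of tested probe sets were, and 1 of them, WAK1, was so in Ws, where 0.315% were. Of the 4, 3 were above wild type in both ecotypes, against 21.9% of probe sets, and the same 3 had both fnr1 arrays above both wild type arrays, against 10.8%. AT1G16670 was the 1 kinase above wild type in Columbia and below it in Ws, a pattern of 25.6% of probe sets. These are the values the kinases were chosen on, and nothing is read from these shares.

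The wild type Columbia array, the dimmest as deposited, was the lowest of the 4 arrays for AT1G11330, AT1G16670 and AT5G59670, as it was for 26.5% of tested probe sets after scaling, while WAK1 was lowest in wild type Ws. On the scale as deposited the Columbia ratios of fnr1 to wild type were larger, at 4.55 for WAK1, 5.03 for AT1G11330, 3.75 for AT1G16670 and 4.90 for AT5G59670. The Ws ratios were then 3.65 for WAK1, 1.48 for AT1G11330, 0.576 for AT1G16670 and 1.30 for AT5G59670. The directions were the same as after scaling, and the part that array quality may have in the Columbia values was not tested. The Ws difference minus the Columbia difference was -0.04 for WAK1, -1.22 for AT1G11330, -1.89 for AT1G16670 and -1.23 for AT5G59670 on the log2 scale. With 1 array per group this genotype by ecotype difference has no replicates, and it was not tested.

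**Figure D2:**
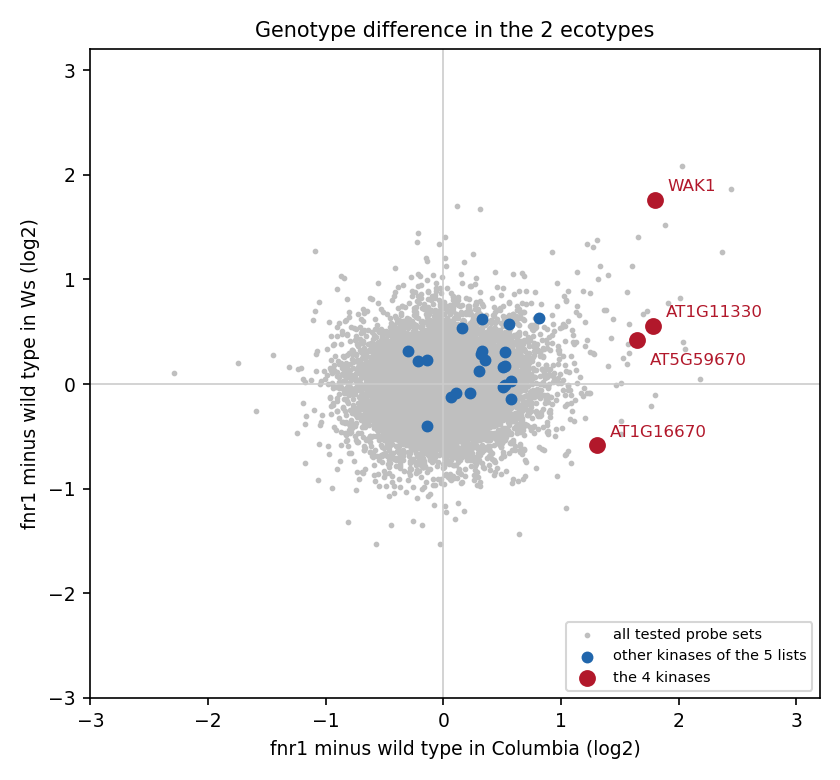
Log2 difference of fnr1 minus wild type in Columbia (horizontal axis) and in Ws (vertical axis) for all tested probe sets in grey, for 22 other kinases in blue and for the 4 kinases in red, with 5 probe sets outside the axes. WAK1 lies in the upper right at 1.80 and 1.76, AT1G11330 and AT5G59670 lie to the right with small Ws values, and AT1G16670 lies to the right and below 0.

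The ecotype comparison asked whether the level in Ws differed from that in Columbia over both genotypes. It is not the contrast the kinases were chosen on, so they were tested there. It still uses the same 4 signals, and its spread comes from the genotype by ecotype difference, which is built from the values of the choice. WAK1 was lower in Ws, AT5G59670 was higher in Ws without passing the test, and the other 2 kinases showed no direction common to both genotypes. WAK1 was the 1 kinase of 4 called by limma at an adjusted p under 0.05, a threshold that 8.26% of tested probe sets passed.

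The signal of WAK1 was lower in Ws, with a fitted log2 difference of -1.44 ± 0.17 (SE, 2 arrays against 2, limma adjusted p = 2.67e-05). In fnr1 the Ws signal was 0.353 times the Columbia signal, and in wild type it was 0.333 times. The fnr1 Ws array (116.2) lay above the wild type Columbia array (90.8), so WAK1 is not among the 21.2% of probe sets with both Ws arrays below both Columbia arrays. The call depends on genotype being in the model: with genotype left out the limma adjusted p was 0.151. The call held as deposited (0.00369), with quantile normalization, with both other pseudocounts, with no filter (0.00714) and without the variance trend (0.00208). The log2 difference shrank to -0.54 without the fnr1 Columbia array and to -0.56 without the wild type Ws array. In both fits WAK1 was no longer called. The log2 difference was -2.32 without fnr1 Ws and -2.34 without wild type Columbia. These fits set the ecotypes against each other with unequal genotypes. Ratios between ecotypes are ratios of array signal, and whether the probes match the transcripts of both ecotypes equally well was not tested. This holds for every gene compared between ecotypes here. Of the 1127 probe sets called by ecotype, 713 were lower and 414 higher in Ws.

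AT5G59670 had a Ws signal 1.13 times the Columbia signal in fnr1 and 3.23 times in wild type. The fitted log2 difference was 0.78 ± 0.26 (SE, 2 arrays against 2), with a limma adjusted p of 0.0752. Over the 11 alternatives the adjusted p ran from 0.000392 to 0.956. It passed the threshold with quantile normalization (0.0383) and without fnr1 Columbia (0.000392), and the difference changed sign without wild type Columbia (-0.04, adjusted p = 0.956).

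AT1G11330 was lower in Ws among mutants (0.482 times) and higher in Ws among wild types (1.24 times). Its fitted difference was -0.36 ± 0.26 (SE, limma adjusted p = 0.487), and without wild type Columbia it was -1.25 with an adjusted p of 0.00407. AT1G16670 showed the same crossing, with 0.408 times in fnr1 and 2.01 times in wild type, and a fitted difference of -0.14 ± 0.33 (limma adjusted p = 0.874). For these 2 kinases the mean over genotypes describes neither genotype. The residual SD of the fit with genotype and ecotype was 0.95 for AT1G16670, 0.61 for AT1G11330 and 0.62 for AT5G59670, against 0.02 for WAK1. Limma replaced these with 0.33, 0.26, 0.26 and 0.17 by drawing each towards the trend of all probe sets, so for the first 3 the printed SE is smaller than the arrays' own spread would give.

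Other receptor kinases and their cytoplasmic partners were counted from 5 gene lists set by family or function. The lists are selections that need not hold whole families, and they were chosen with earlier results of these data known. Of 131 entries, 4 were the kinases above, 53 had no listed probe set and were not analysed here, 52 were too dim to be tested (at most 23.3 on any array), and 22 were tested. None of the 22 was called between fnr1 and wild type over both ecotypes (limma), where 0.183% of all tested probe sets were called. At an unadjusted p under 0.05 there were 3 of the 22, and 6.63% of all tested probe sets. Of the 22, 12 were above wild type in both ecotypes, 1 was below in both and 9 differed in sign. Among all 13648 tested probe sets, 21.9% were above in both, 4088 were below in both and 48.1% differed in sign. On the log2 scale their median was 0.33 in Columbia and 0.20 in Ws, beside medians of -0.02 and -0.04 over all tested probe sets. As deposited, 14 of 22 were above in both ecotypes, beside 28% of all tested probe sets. Their medians were then 0.62 in Columbia and 0.13 in Ws, beside 0.28 and -0.11 for all.

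Among 22 wall-associated kinases and relatives on the list, WAK1 included, 6 others had a listed probe set. WAK2, WAK3, WAK4 and WAK5 had none and were not analysed here. Of the 6, 3 were bright enough to test and 0 were called (1 at an unadjusted p under 0.05). WAKL9 had 176.6 in fnr1 Columbia against 120.9 in wild type Columbia, and 133.2 in fnr1 Ws against 107.0 in wild type Ws. Its fitted log2 difference was 0.41 (limma adjusted p = 0.67). WAKL8 had 111.7 in fnr1 Columbia against 99.4 in wild type Columbia, and 36.4 in fnr1 Ws against 23.4 in wild type Ws, a fitted difference of 0.35 (limma adjusted p = 0.818). Like WAK1, WAKL8 had a lower signal in Ws (log2 difference -1.66, limma adjusted p = 2.5e-05). WAKL14 had a genotype difference of 0.01 (limma adjusted p = 0.999). WAKL15, WAKL17 and WAKL20 stayed at or below 9.98 on each array and were not tested.

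Among S-domain lectin kinases, the family of AT1G11330, 8 relatives were tested and 0 were called by genotype (2 at an unadjusted p under 0.05). AT4G11900 had the largest difference, 0.81 in Columbia and 0.63 in Ws, with 36.4 in fnr1 Columbia against 18.2 in wild type Columbia and 10.4 in fnr1 Ws against 4.70 in wild type Ws. Its fitted difference was 0.72 (limma adjusted p = 0.668). AT4G27300 had 0.47 (limma adjusted p = 0.645) and AT2G19130 had 0.33 (limma adjusted p = 0.829). By ecotype 3 of the 8 were called, beside 8.26% of all tested probe sets, and 2 of these calls ended with 1 array left out. AT1G11280 had a lower signal in Ws (log2 difference -2.87, limma adjusted p = 1.72e-07), while its genotype difference was 0.01. It had 14.7 and 10.7 in fnr1 and wild type Ws against 115.1 and 142.8 in fnr1 and wild type Columbia. AT4G11900 fell in Ws (-1.29, limma adjusted p = 0.00923), where its wild type signal of 4.70 lay below the pseudocount. AT1G61370 rose in Ws (1.15, limma adjusted p = 0.0172). The call of AT4G11900 ended without fnr1 Columbia (limma adjusted p = 0.27) or wild type Ws (0.219), and that of AT1G61370 without fnr1 Ws (0.102), wild type Columbia (0.0922) or wild type Ws (0.188), while WAKL8 and AT1G11280 were called with each array left out.

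Of the malectin-like leucine-rich repeat kinases, the family of AT5G59670, 4 relatives were tested and 0 were called in either comparison. Of all tested probe sets, 0.183% were called by genotype and 8.26% by ecotype. By genotype 0 of the 4 had an unadjusted p under 0.05. AT5G59680, the next gene to AT5G59670, had 23.2 in fnr1 Columbia against 13.9 in wild type Columbia, and 23.0 in fnr1 Ws against 13.6 in wild type Ws. Its differences of 0.56 and 0.57 were alike in both ecotypes, unlike those of AT5G59670, and its limma adjusted p was 0.757. AT5G59650, 2 genes away on the other side, had -0.27 (limma adjusted p = 0.92). AT1G51805 had 0.26 (limma adjusted p = 0.824) and AT3G46370 had 0.00 (limma adjusted p = 1).

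The tested pattern recognition receptors and other cytoplasmic kinases had small genotype differences. Of 19 pattern recognition receptors and co-receptors on the list, 4 had a listed probe set and 3 were tested. FLS2, BAK1 and CERK1 were among those with no listed probe set and were not analysed here. Of the 3 tested, 0 were called and 0 had an unadjusted p under 0.05. MIK2, a receptor of peptide signals, had 0.30 (limma adjusted p = 0.824). HPCA1, a sensor of hydrogen peroxide, had 0.24 (limma adjusted p = 0.849), and FER, a receptor of cell wall and peptide signals, had -0.03 (limma adjusted p = 0.994). For MIK2 and HPCA1 the value came from Columbia, at 0.58 and 0.51, with 0.03 and -0.03 in Ws. The list of cytoplasmic kinases held 10 genes with CRPK1. Of the others, 5 had a listed probe set, 4 were tested, 0 were called and 0 had an unadjusted p under 0.05. AT3G09010 had 0.35 (limma adjusted p = 0.842), and the immune kinases PCRK1 and PCRK2 had 0.30 and 0.32 (limma adjusted p = 0.849 and 0.837). BIK1, the kinase that acts directly below several immune receptors, had 0.05 (limma adjusted p = 0.99).

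**Figure D3:**
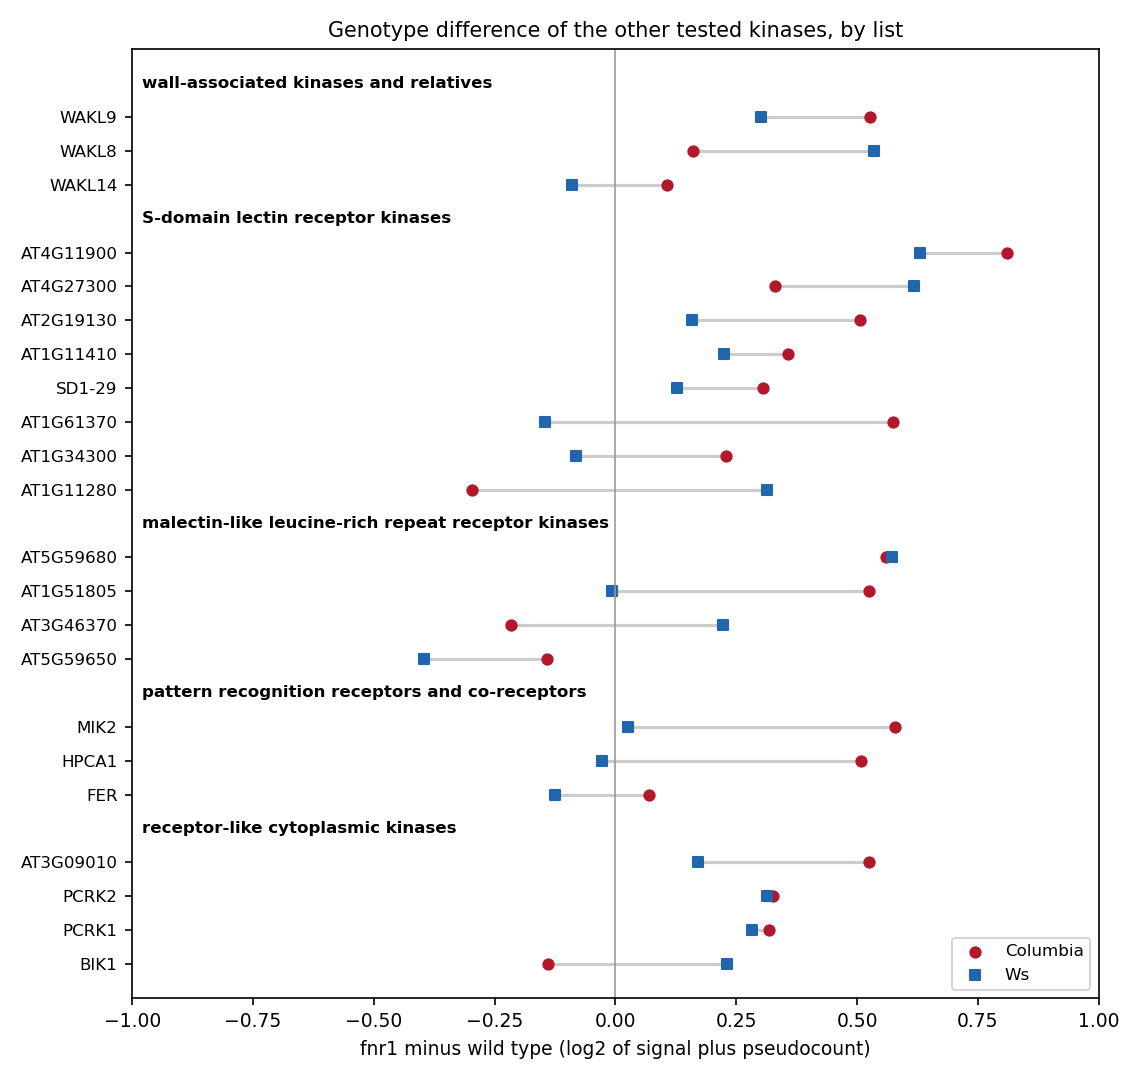
Log2 difference of fnr1 minus wild type in Columbia (red circles) and in Ws (blue squares) for the 22 other tested kinases, grouped by list, with a grey line joining the values of a gene. All lie between -1 and 1, and the farthest from 0 is AT4G11900 in Columbia at 0.81.

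Little of the salicylic acid pathway could be measured under the same annotation. Of 20 genes of its synthesis, signalling and response, 2 had a listed probe set and 1 was tested. SAG101, a partner of the immune regulator EDS1, had 21.6 in fnr1 Columbia against 10.7 in wild type Columbia, and 17.7 in fnr1 Ws against 20.8 in wild type Ws (fitted difference 0.28, limma adjusted p = 0.92). GRX480, a salicylate-induced glutaredoxin, reached at most 11.4 and was not tested. The 39 cysteine-rich receptor kinases and the 7 reported partners of WAK1 and CRPK1 had no listed probe set and were not analysed here.

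Genes next to the kinases on their chromosomes, which were not chosen by their values, were listed in part. Within 5 genes on either side, 18 probe sets were listed and 10 were tested. In either comparison 0 of the 10 were called, beside 0.183% of all tested probe sets by genotype and 8.26% by ecotype. Their lowest limma adjusted p was 0.757 by genotype and 0.0844 by ecotype. The fnr1 minus wild type differences of the 10 ran from -0.34 to 0.56 in Columbia and from -0.58 to 0.57 in Ws. None of the 10 lies next to WAK1, whose 2 listed neighbours were too dim to be tested. AT1G11340, an S-domain kinase that directly follows AT1G11330, had 10.2 in fnr1 Columbia against 13.6 in wild type Columbia, and 12.1 in fnr1 Ws against 12.6 in wild type Ws, too dim to be tested. AT5G59660, which directly precedes AT5G59670, had 9.01 in fnr1 Columbia against 13.8 in wild type Columbia, and 15.8 in fnr1 Ws against 15.5 in wild type Ws. These kinases lie in clusters of related genes, and whether their probe sets also take up transcripts of relatives was not tested.

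The 4 kinases had different patterns over the arrays. With each probe set centred on its own mean, the Euclidean distance over the 4 log2 values was smallest between AT1G11330 and AT1G16670 (0.904) and largest between WAK1 and AT5G59670 (2.42). For each kinase the 3 nearest of 7348 other tested probe sets with 1 named gene were taken, as a description over 4 arrays. Nearest to WAK1 were AT5G55450, a lipid transfer protein gene (distance 0.724), AT5G43440 (1.01) and AT3G60420, a phosphoglycerate mutase family gene (1.02), against a median distance of 2.36 over all 7348. AT5G55450 had 174.4 in fnr1 Columbia against 51.4 in wild type Columbia, and 91.0 in fnr1 Ws against 30.8 in wild type Ws, thus higher in the mutant and lower in Ws, as was WAK1.

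Nearest to AT1G11330 were the cytochrome P450 gene CYP71B23 (0.213), AT4G38550 (0.274) and CYP71B22 (0.328), against a median of 1.45. CYP71B23 had 45.2 in fnr1 Columbia against 9.90 in wild type Columbia, and 26.0 in fnr1 Ws against 14.1 in wild type Ws. CYP71B22 had 41.6 in fnr1 Columbia against 10.6 in wild type Columbia, and 15.4 in fnr1 Ws against 12.1 in wild type Ws. Both P450 genes were, like the lectin kinase, separated by genotype mainly in Columbia.

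Nearest to AT1G16670 were AT4G26060 (0.264), AT2G41040 (0.324) and AT1G23440 (0.392), against a median of 1.10. All 3 crossed in the same way: AT2G41040, the brightest of them on the fnr1 Columbia array, had 136.6 in fnr1 Columbia against 73.0 in wild type Columbia, and 73.4 in fnr1 Ws against 117.2 in wild type Ws. Nearest to AT5G59670 were HEMF2, which encodes a coproporphyrinogen oxidase of the tetrapyrrole pathway (0.16), AT3G21465 (0.336) and AT3G26850 (0.489), against a median of 1.47. HEMF2 had 19.6 in fnr1 Columbia against 3.70 in wild type Columbia, and 25.8 in fnr1 Ws against 17.5 in wild type Ws, with the wild type Columbia signal below the pseudocount. Each of these 3 genes was lowest on the wild type Columbia array, as was AT5G59670.

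**Figure D4:**
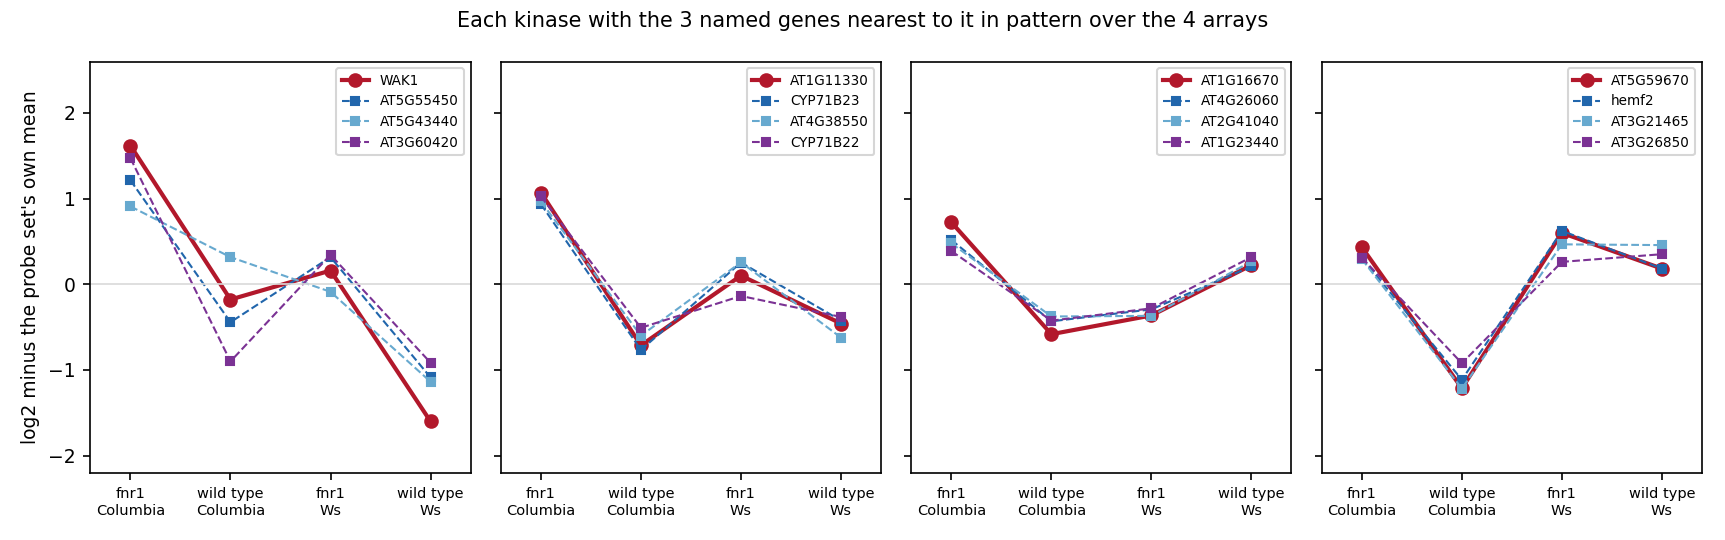
Log2(signal + 5.76) minus the probe set's own mean on the 4 arrays for each kinase (red circles, solid line) and for the 3 named genes nearest to it in pattern (squares, dashed lines). The WAK1 set is higher in fnr1 in both ecotypes, the AT1G11330 set is highest in fnr1 Columbia, the AT1G16670 set crosses between ecotypes, and the AT5G59670 set is set apart by a low wild type Columbia array.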

How the data were processed

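The deposited table holds 1 linear intensity signal per probe set and array, made by the authors with MAS5 per the submitters' processing notes; its version, scaling target and detection calls are not given in the sources used here. Signals were scaled to a common array median and log2(signal + 5.76) was taken, the pseudocount being the 25th percentile of all scaled signals. Scaling was chosen because the deposited arrays were known to differ in median, and the deposited scale is an alternative. Of 22810 probe sets, 64 controls were left out, and the 13648 of 22746 at or above the 40th percentile of mean log2 signal entered 1 fit across all genes with limma 3.58.1 (R 4.3.3) with genotype and ecotype as additive terms, a variance trend, 2-sided tests and Benjamini-Hochberg adjustment at 0.05. The fit has 1 residual and 15.1 prior degrees of freedom. The script was tested on simulated data.

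With 1 array per group, the spread behind a p-value of the main fit is not one between repeated plants. It is the genotype by ecotype difference of each probe set, drawn towards the trend of all probe sets. Technical spread of single arrays is part of it and cannot be told apart. Nothing in the labels says that arrays stand for separate cultures, and having 4 arrays limits the precision. The 4 kinases and the lists were chosen with earlier results of these data known. Genes were named from 13513 probe sets with 1 annotated gene, each gene by its brightest probe set. The kinases were named in full, with called list members, the 3 largest and the 1 smallest genotype difference of each list, the 3 genes nearest in pattern and listed neighbours within 5 genes, here mostly as ranges. The gene order is that of TAIR10.1. A wider list by gene description was not built. Alternatives changed the scale, pseudocount, filter, variance trend, covariate and arrays.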

Additional observations from a re-analysis of the deposited data

Results flagged for a closer look

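For 16 of 40 named genes the difference of fnr1 minus wild type had opposite signs in Ws and in Columbia, each time from 1 array against 1, and this was not tested. Of all tested probe sets, 48.1% did so. Among the 4 kinases this was AT1G16670, with a Ws minus Columbia difference of -1.89 on the log2 scale. The 3 genes nearest to it in pattern, which were picked for that likeness, had -1.45 (AT4G26060), -1.49 (AT2G41040) and -1.41 (AT1G23440), and AT3G26850, near to AT5G59670, had -1.32. Among the other list genes the values were -0.20 for WAKL14, 0.61 for AT1G11280, -0.72 for AT1G61370, -0.53 for AT1G51805, 0.44 for AT3G46370, -0.19 for FER, -0.54 for HPCA1, 0.37 for BIK1 and -0.91 for SAG101. The leaf markers RCA and LHCB4.3 had 0.10 and -0.62.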

How the results depend on the processing

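The limma calls between fnr1 and wild type, 25 in all (22 higher and 3 lower in fnr1), were 27 as deposited, 36 with quantile normalization, 6 without the variance trend, 0 with no filter (1181 at an unadjusted p under 0.05) and 0 with ecotype left out (211). They were 0 to 1 with an array left out. The calls between Ws and Columbia, 1127, were 477 as deposited, 734 without the variance trend, 369 with no filter and 538 to 911 with an array left out. With 3 arrays the second factor has to leave the model, and the lone array of a group is assumed to vary like the others. No list kinase was called by genotype under any of the 11 alternatives, 5 of which called no probe set at all.

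The difference between Ws and Columbia for AT1G16670 vanished as deposited (0.00). With an array left out, the differences between Ws and Columbia ran from -0.79 to 0.51 for AT1G16670 and from -1.25 to 0.53 for AT1G11330. They ran from -0.041 to 1.61 for AT5G59670 and from -2.34 to -0.54 for WAK1. The fnr1 minus wild type difference of AT1G16670 over both ecotypes ran from -0.18 to 0.90. Within each ecotype the direction of all 4 kinases was the same under the 2 other scales and the 2 other pseudocounts. With no filter AT4G11900 and AT1G61370 were no longer called between ecotypes (limma adjusted p = 0.129 and 0.188). The ecotype term already sets each fnr1 array against the wild type array of its ecotype. No paired analysis by replicate number was possible, because the labels give none and each group has 1 array.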
